A study of Mus musculus with 7 samples.

Results

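The immunoglobulin heavy chain locus (Igh) was examined at its D, J and constant end, from the sequence past the last constant gene, Igha, up to the start of the first V gene, at chr12:113200000-113572926 of the mm10 genome. Every ATAC-seq peak that overlapped this 373.0 kb window in any of 7 libraries was taken, which gave 260 of 647973 called peaks. Peaks that shared at least 1 bp were merged across libraries into 65 regions, of 145247 regions in the genome. In ATAC-seq a transposase cuts accessible DNA and the fragments are sequenced, so that a peak is a place with more fragments than the background of the genome.

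The libraries came from sorted mouse B-lineage progenitors at successive stages, called pre-proB, proB and preB, and each group was 1 library, so no difference below has a replicate check. WT cells were Ergfl/fl, with floxed Erg alleles and no Cre, at all 3 stages. Erg KO pre-proB cells were Rag1CreT/+;Ergdelta/delta, in which Cre driven from the Rag1 gene deletes Erg, an ETS-family transcription factor, in lymphoid progenitors. Rescue cells were Rag1CreT/+;Ergdelta/delta;IgHVH10tar, the same deletion with a knocked-in, already rearranged heavy chain gene, again at 3 stages. The labels do not say how many copies were knocked in, and the study's text gives the mice as heterozygous for it. The knocked-in allele lies in the locus studied here, and alleles could not be told apart. The age, strain and sex of the mice are not stated in the labels, nor whether animals were pooled. For all 3 Rescue libraries the labels give another stage in the source name than in the title (proB for the title pre-proB, preB for proB and pre-proB for preB). Titles were followed.

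Igh is read from high to low coordinates, so the D segments come before the J segments, then Ighm, Ighd and the other constant genes, then the 3′ regulatory region. A B cell first joins a D to a J segment, which deletes the DNA between them, and then a V segment to that product. A peak over the D segments therefore counts only alleles that still hold that DNA, and in these data fewer alleles and less open chromatin per allele cannot be told apart. The intronic enhancer Eμ lies between the J segments and Ighm and acts early. The 3′ regulatory region holds the enhancers hs3a, hs1,2, hs3b and hs4, in that order from Igha, and is best known for its part in class switching and in heavy chain output of later B cells. Beyond it lies an insulator with many binding sites for CTCF, a protein that anchors chromatin loops. Another pair of CTCF sites, known as IGCR1, separates the D segments from the V genes. None of these elements is annotated in the gene set used, so they were placed by their order and, where given, by sequence.

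The sequences that the results turn on are printed 5′ to 3′ from GRCm38, the assembly of mm10. The Eμ summit lay at position 113427483 in WT preB, and the core round it (chr12:113427383-113427603, minus strand, which is the reading strand of Igh) is shown because its protein sites are well known. Capitals mark matches to GGAAG (the core bound by ETS factors), CATGTG (an E-box, bound by E proteins and their relatives) and the octamer ATGCAAAT, or its reverse complement, bound by Oct proteins. The first GGAAG, the E-box and the next GGAAG stood close together, in the order of the elements known as μA, μE3 and μB.
Eμ: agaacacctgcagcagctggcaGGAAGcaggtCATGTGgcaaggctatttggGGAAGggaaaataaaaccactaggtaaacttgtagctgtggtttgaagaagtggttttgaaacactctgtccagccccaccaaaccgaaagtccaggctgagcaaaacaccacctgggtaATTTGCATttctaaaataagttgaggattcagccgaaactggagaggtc

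The D segment nearest to the J segments, Ighd4-1 (also called DQ52), carried the other high peak of the J stretch, with its summit 44 bp upstream of the segment. It is shown with the DNA on both sides (chr12:113430483-113430668, minus strand). The capitals mark a match to CACAGTG, the letters of the heptamer of the recombination signals cut by the RAG proteins, run on into the 11 bases of the segment itself. The match stands upstream of the segment and reads toward it, so it is given as letters only. Signals that differ from these letters are not marked.
Ighd4-1: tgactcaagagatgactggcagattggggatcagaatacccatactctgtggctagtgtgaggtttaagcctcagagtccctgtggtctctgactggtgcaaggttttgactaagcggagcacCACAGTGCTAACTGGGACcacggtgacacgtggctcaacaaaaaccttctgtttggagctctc

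Downstream of Igha, the summits of selected regions that rose or were first called between WT pre-proB and WT proB cells are shown. They are on the minus strand with the same capitals. The first lay 26482 bp past Igha, at the place of hs4 (chr12:113228273-113228422), and had an octamer centred 6 bp from its summit. The next lay 13475 bp past Igha (chr12:113241280-113241429) and held no octamer. The third lay 9889 bp past Igha (chr12:113244866-113245015), and its octamer overlapped a CATGTG match.
26482 bp past Igha: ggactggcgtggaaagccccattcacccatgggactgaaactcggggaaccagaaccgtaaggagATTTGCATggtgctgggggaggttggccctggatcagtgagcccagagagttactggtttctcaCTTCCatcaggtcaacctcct
13475 bp past Igha: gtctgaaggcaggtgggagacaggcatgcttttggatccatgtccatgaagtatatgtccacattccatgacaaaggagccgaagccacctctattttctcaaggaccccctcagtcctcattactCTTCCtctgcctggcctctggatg
9889 bp past Igha: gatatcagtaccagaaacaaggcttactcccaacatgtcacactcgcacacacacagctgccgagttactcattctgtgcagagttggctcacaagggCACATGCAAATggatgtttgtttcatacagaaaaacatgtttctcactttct

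Matches to the core of the motif bound by CTCF (CCA, any 2 bases, AG, any base, GGG) are shown in capitals with 10 flanking bases, each on the strand where the core reads as written. The 3 insulator cores shown all read on the plus strand, and the pair upstream of Ighd1-1, at the place of IGCR1, read in opposite directions. Only selected regions were searched along their whole length.
Insulator, plus strand, chr12:113216108-113216138: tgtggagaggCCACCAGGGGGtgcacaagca
Insulator, plus strand, chr12:113220043-113220073: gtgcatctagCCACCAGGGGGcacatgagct
Insulator, plus strand, chr12:113221398-113221428: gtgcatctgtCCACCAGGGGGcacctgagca
Upstream of Ighd1-1, minus strand, chr12:113485261-113485291: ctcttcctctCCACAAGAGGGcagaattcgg
Upstream of Ighd1-1, plus strand, chr12:113487878-113487908: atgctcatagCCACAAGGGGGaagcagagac

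The height of a peak is given as the fold deposited by the authors, the pileup of fragments at the summit over a background pileup that was the same across a library, with 1 added to each. The window held 30, 35 and 34 peaks in pre-proB (WT, Erg KO, Rescue), 32 and 50 in proB (WT, Rescue) and 30 and 49 in preB (WT, Rescue). The lists held between 76465 and 105649 peaks in all, and the background pileup lay between 3.49 and 4.60. The lowest summit called was 10 to 12 fragments, so "no peak" means fewer than about that many, not closed chromatin. Of the 65 regions, 13 had a peak in all 7 libraries and 20 in a single library. None of the 65 lay between the last D segment and the first V gene. Of the 145247 regions in the genome, at least 45310 had a peak in all 7 libraries. The genome share of regions in a single library was not taken. Promoters of the 10 B-lineage marker genes had a peak for 6 to 10 genes per library, of the T cell markers for 2 to 7, of the NK markers for 3 to 6, of the plasmacytoid dendritic markers for 9 or 10 and of the myeloid markers for 3 to 6, each of 10. A peak at the Erg promoter was present in all 7 libraries, and does not test the deletion.

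**Figure D1:**
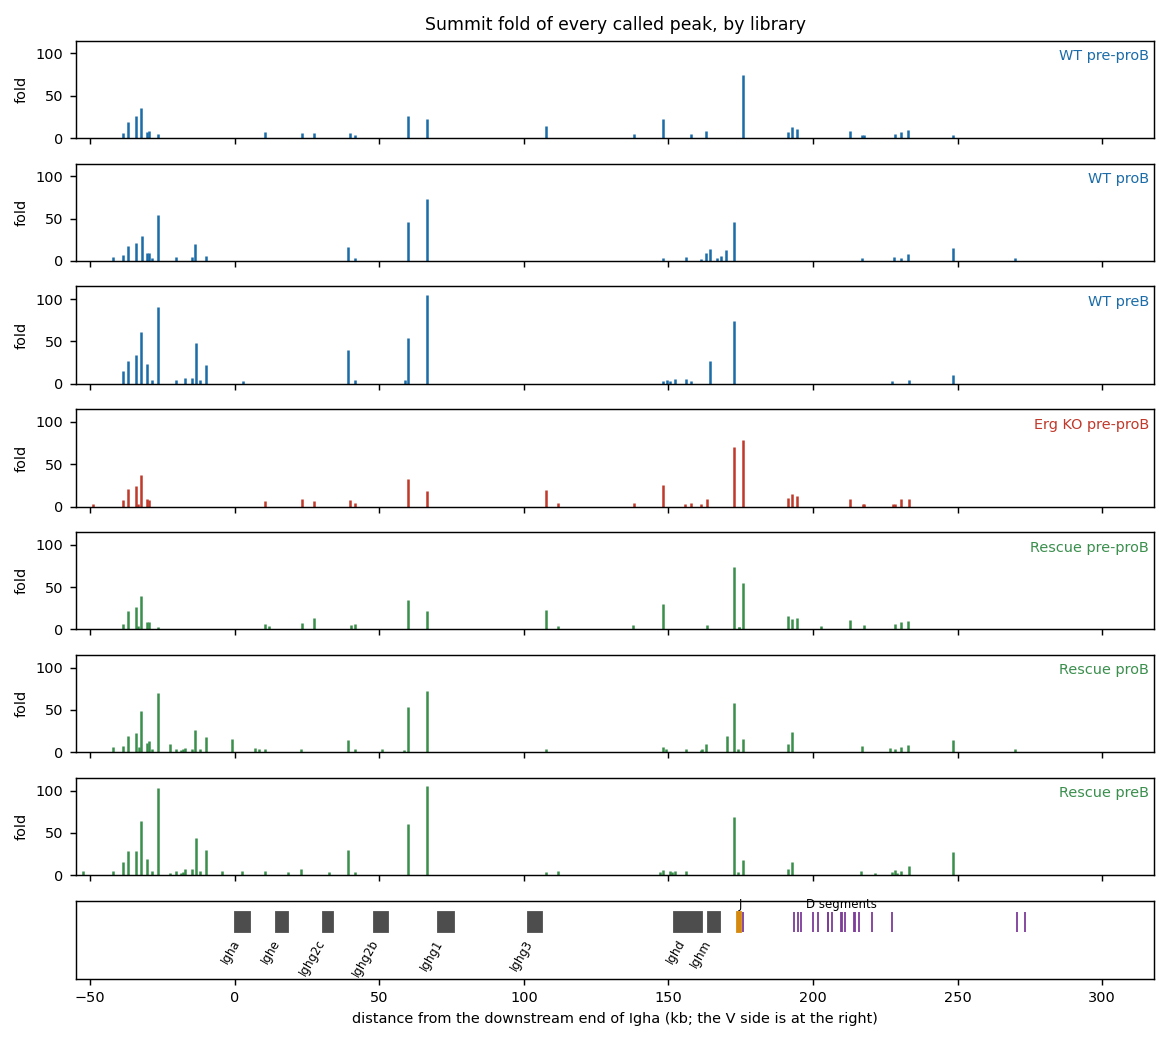
Summit fold (linear axis) of each of the 260 peaks against distance in kb from the downstream end of Igha, with 1 row for each library and the genes in the bottom row. The tall peaks left of Igha at the hs4 position appear in the 4 proB and preB libraries, and the peak at the right end of the J segments (Ighd4-1) is tallest in the 3 pre-proB libraries.

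The insulator was open in every library. The highest of its regions, chr12:113221272-113223682, had a fold of 35.7, 36.8 and 39.1 in pre-proB (WT, Erg KO, Rescue), 29.4 and 48.3 in proB (WT, Rescue) and 61.2 and 63.7 in preB (WT, Rescue). The WT proB summit stood elsewhere in the region than the other 6. Both preB libraries were the highest and the 3 pre-proB libraries lay close together. All 5 regions between 30385 and 38749 bp past Igha had a peak in all 7 libraries, with folds between 5.82 and 63.7. The insulator CTCF cores printed above lay in 3 of these 5 regions, and the others were not searched along their whole length. The region nearest to Igha among them, chr12:113223954-113225451, rose 2.57-fold from WT proB to WT preB (9.05 to 23.2, 95% counting interval 1.81 to 3.68).

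In WT cells the fold at the hs4 position went from 5.04 at pre-proB to 54.6 at proB and 90.7 at preB. In Rescue cells it went from 3.22 to 70.6 and 103 over the same stages, and Erg KO pre-proB had no peak. The 4 proB and preB libraries all stood above the 3 pre-proB libraries. From WT pre-proB to WT proB the fold rose 10.8-fold (95% counting interval 7.25 to 16.9). The summit rested on 25 fragments in WT pre-proB (95% Poisson interval 16.2 to 36.9) and on 17 in Rescue pre-proB (9.90 to 27.2). Rescue pre-proB stood at 0.638 of WT pre-proB, with an interval that includes 1 (0.330 to 1.21). The lowest summit called in Erg KO pre-proB was 12 fragments, so its value at hs4 is known only to lie below about that.

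The regions between hs4 and Igha had no peak in pre-proB cells. Some had a peak in every proB and preB library, and others lacked one in WT proB or in all WT cells. The region 13475 bp past Igha had a fold of 20.3 and 26.3 in proB (WT, Rescue) and of 48.0 and 43.5 in preB (WT, Rescue). The region 9889 bp past Igha had a fold of 6.09 and 18.0 in proB (WT, Rescue) and of 22.6 and 29.7 in preB (WT, Rescue). All 3 pre-proB libraries lacked a peak in both regions, whatever their genotype. Between them lies the centre, at position 113243192, of an inverted repeat. A pair of regions on either side of that centre shared 403 words of 31 bases in opposite orientation, and 99 of 100 bases round the summit of the far copy matched the near copy, which overlapped the summit 872 bp past Igha. This is the layout described for hs3b and hs3a, on either side of hs1,2. The far copy, chr12:113232072-113232820, had a fold of 10 in Rescue proB and 3.09 in Rescue preB. The near copy had a peak in Rescue proB, at 15.6. That peak was 7498 bp long (chr12:113253654-113261151) and ran into Igha, where separate, short peaks of WT preB (3.73) and Rescue preB (4.33) were merged with it. Neither copy had a peak in WT cells or in pre-proB cells. Reads that match both copies cannot be placed, and 21.8% of the 75-base words of the far copy occur more than once in the genome, so values for this pair are uncertain.

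Smaller peaks were also called in this stretch, some in both WT and Rescue cells and some in Rescue cells only. Of the 21 regions downstream of Igha, the number with a peak was 6, 6 and 6 in pre-proB (WT, Erg KO, Rescue), 12 and 18 in proB (WT, Rescue) and 14 and 20 in preB (WT, Rescue). A region is placed by its highest summit, and without the one whose preB peaks lie inside Igha the preB numbers were 13 and 19. Over all regions of the genome, the number with a peak was 90700, 97880 and 101428 in pre-proB (WT, Erg KO, Rescue). That number was 87423 and 85877 in proB (WT, Rescue) and 71844 and 80064 in preB (WT, Rescue). The length covered by peaks in this block, in kb, was 5.26, 5.42 and 5.58 in pre-proB (WT, Erg KO, Rescue), 9.53 and 14.5 in proB (WT, Rescue) and 12.6 and 15.1 in preB (WT, Rescue).

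**Figure D2:**
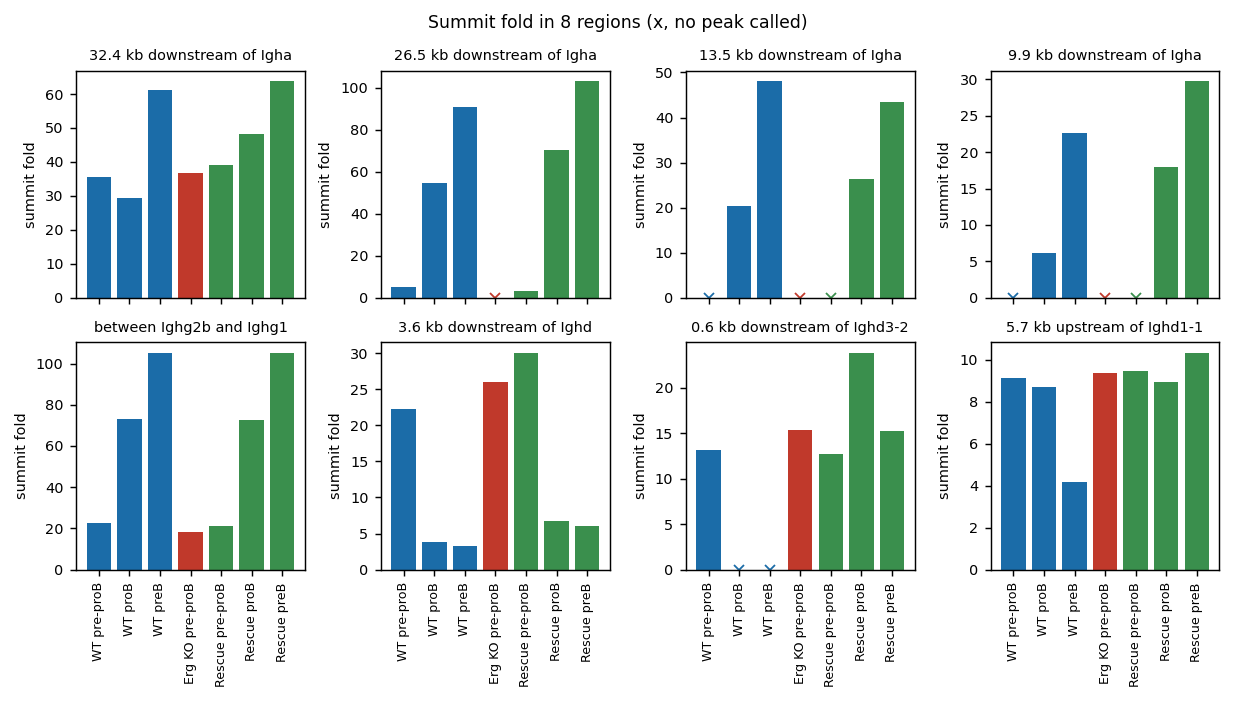
Summit fold (linear axes from 0) in 8 regions, 1 bar for each library; a cross marks a library with no peak. The regions 26482, 13475 and 9889 bp past Igha and the one between Ighg2b and Ighg1 are tall in proB and preB libraries. The insulator region, 32387 bp past Igha, is tall in all 7 libraries and lowest in WT proB. The region downstream of Ighd is tall in pre-proB libraries.

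Among the constant genes, the highest peak that each proB and preB library had in the window stood between Ighg2b and Ighg1 (the constant genes of IgG2b and IgG1), a stretch in which a γ1 3′ enhancer has been described. The region chr12:113320823-113321715 had a fold of 22.5, 18.1 and 21.3 in pre-proB (WT, Erg KO, Rescue), 72.9 and 72.4 in proB (WT, Rescue) and 105 and 105 in preB (WT, Rescue). It rose 3.24-fold from WT pre-proB to WT proB (95% counting interval 2.63 to 4.02). WT preB and Rescue preB had the same fold to the digits printed, and WT proB and Rescue proB lay within counting error. Its WT preB summit exceeded 97.0% of the peaks of that library. Its neighbour, chr12:113314397-113315288, differed less, from 26.2 in WT pre-proB to 60.9 in Rescue preB, with 46.0, 53.5, 32.6, 34.5 and 53.2 in WT proB, WT preB, Erg KO pre-proB, Rescue pre-proB and Rescue proB. The third highest region of the block, chr12:113293065-113295152, 4984 bp upstream of Ighg2c, had a fold of 16.1 and 14.3 in proB (WT, Rescue) and 40.3 and 29.9 in preB (WT, Rescue). It rose 2.51-fold from WT proB to WT preB (95% counting interval 1.94 to 3.28). The 3 pre-proB libraries had a peak over this place with its summit elsewhere, 5835 bp upstream of Ighg2c, at 5.82, 7.51 and 5.72 (WT, Erg KO, Rescue).

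Other regions of the constant block moved the opposite way and were highest in pre-proB cells. The region chr12:113402542-113403451, 3578 bp downstream of Ighd, had a fold of 22.3, 26.0 and 30.0 in pre-proB (WT, Erg KO, Rescue), 3.88 and 6.68 in proB (WT, Rescue) and 3.29 and 5.98 in preB (WT, Rescue). WT pre-proB stood 5.75-fold above WT proB (95% counting interval 3.59 to 9.64), and the 3 pre-proB libraries did not overlap with the other 4. A region 1338 bp upstream of Ighg3, chr12:113362332-113362904, had a fold of 14.7, 19.8 and 22.9 in pre-proB (WT, Erg KO, Rescue), no peak in WT proB or WT preB, and 4.23 and 3.92 in Rescue proB and Rescue preB. Of the 24 regions of this block, 12 were called in a single library, with folds between 2.90 and 5.57. The genome share of such regions was not taken, so this count is a description only. All but chr12:113313540-113313761 and chr12:113404327-113404612, both called in WT preB, were called in a Rescue library.

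Over Ighd, the constant gene of IgD, peaks were low. The region chr12:113410565-113411294 had a fold of 3.30 in Erg KO pre-proB, of 4.25 and 3.56 in proB (WT, Rescue) and of 5.48 and 4.54 in preB (WT, Rescue), and no peak in the other libraries. The region chr12:113406805-113407189 had a fold of 5.48 in WT preB and 4.33 in Rescue preB. A region at chr12:113412439-113412957 had 5.04 in WT pre-proB, 3.73 in WT preB and 4.21 in Erg KO pre-proB.

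From the upstream end of Ighd to Ighd4-1, peaks merged into a single region, chr12:113415381-113431987, which was open in every library. Most of the interval between Ighm and the J segments, 5.78 kb long, was covered by peaks in every library, from 4.56 kb in WT proB to 5.78 kb in WT pre-proB. The fold at the Eμ summit was 70.5 and 74.3 in pre-proB (Erg KO, Rescue), 45.8 and 58.6 in proB (WT, Rescue) and 74.5 and 69.1 in preB (WT, Rescue). WT pre-proB had no value there, since a single peak of 12580 bp ran from Ighm past Ighd4-1, and a peak has a height only at its summit. WT preB stood 1.63-fold above WT proB (95% counting interval 1.38 to 1.92) and Rescue proB 1.28-fold above WT proB (1.07 to 1.53), while Rescue preB against WT preB gave 0.927 (0.795 to 1.08).

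At Ighd4-1 the fold was 74.6, 78.6 and 55.2 in pre-proB (WT, Erg KO, Rescue) and 15.8 and 18.2 in Rescue proB and preB, and WT proB and WT preB had no peak. The 3 pre-proB libraries stood far above the other 4, in the order Erg KO, WT, Rescue. Erg KO and WT pre-proB did not differ beyond counting error (ratio 1.05, 0.916 to 1.21), and Rescue pre-proB stood at 0.740 of WT pre-proB (0.635 to 0.862). Over the J segments, which span 1.32 kb, peaks covered all of it in WT and Erg KO pre-proB and 0.483 kb in Rescue pre-proB. They covered 0.403 kb in Rescue proB and none in WT proB, and 0.627 and 0.628 kb in preB (WT, Rescue).

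**Figure D3:**
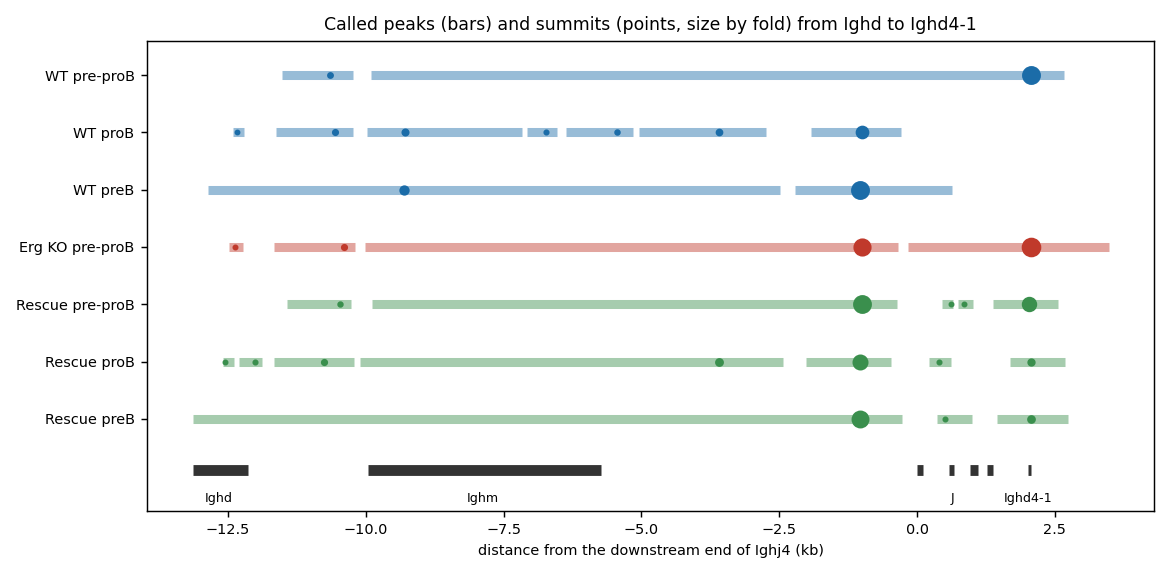
Called peaks (bars) and summits (points, wider with higher fold) from Ighd to Ighd4-1 in the 7 libraries, against distance in kb from the downstream end of Ighj4. A summit stands at Eμ in every library but WT pre-proB, whose single long peak has its summit at Ighd4-1, where WT proB and WT preB have no peak.

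Further into the D segments, the regions differed in which libraries had a peak. The region chr12:113447133-113447860, 627 bp downstream of Ighd3-2, had a fold of 13.2, 15.4 and 12.7 in pre-proB (WT, Erg KO, Rescue) and 23.8 and 15.3 in Rescue proB and preB, with no peak in WT proB or WT preB. Its neighbour, chr12:113446052-113446558, had 7.37, 10.3 and 15.9 in pre-proB (WT, Erg KO, Rescue) and 9.35 and 7.22 in Rescue proB and preB, again with none in WT proB or WT preB. Both lie between Ighd4-1 and Ighd3-2, DNA that any join of an upstream D segment to a J segment removes. A further 2 regions, chr12:113449041-113449598 beside Ighd5-6 and chr12:113467293-113467801, were called in the 3 pre-proB libraries and in no other, with folds between 8.34 and 13.0. The length covered in the D block, in kb, was 5.54, 6.13 and 5.84 in pre-proB (WT, Erg KO, Rescue), 2.72 and 5.08 in proB (WT, Rescue) and 1.13 and 5.89 in preB (WT, Rescue), so WT proB and WT preB were the lowest.

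At the place of IGCR1, upstream of all but the farthest D segments, the CTCF core nearer to Ighd1-1 lay in chr12:113484850-113485790. Its fold was 7.56, 8.80 and 8.40 in pre-proB (WT, Erg KO, Rescue), 3.51 and 6.01 in proB (WT, Rescue) and 5.16 in Rescue preB, with no peak in WT preB. The other core lay in chr12:113487618-113488153, whose fold was 9.11, 9.34 and 9.47 in pre-proB (WT, Erg KO, Rescue), 8.68 and 8.91 in proB (WT, Rescue) and 4.16 and 10.3 in preB (WT, Rescue). WT preB was the lowest library at both. Further out, chr12:113502845-113503559, 20958 bp upstream of Ighd1-1, had a fold of 3.49 in WT pre-proB, 15.3 and 15.1 in proB (WT, Rescue) and 10.5 and 27.0 in preB (WT, Rescue), and no peak in Erg KO or Rescue pre-proB. Of its 75-base words, 21.2% occur more than once in the genome.

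**Figure D4:**
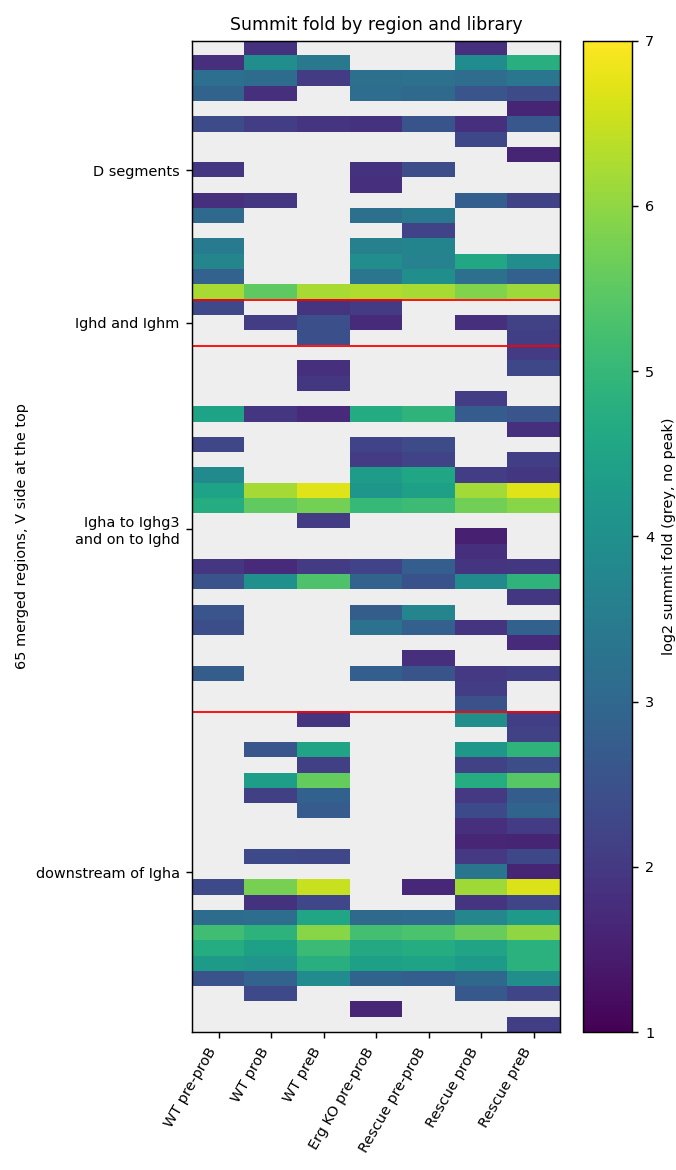
Log2 summit fold of the 65 regions (rows, V side at the top) in the 7 libraries (columns), with grey for no peak and red lines between blocks named by their genes; a region is placed by its highest summit. The downstream block fills in proB and preB columns, and much of the D block is grey in WT proB and WT preB.

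Few regions of the window differed between Erg KO and WT pre-proB cells, a comparison that asks what the loss of Erg does to the locus. Of 28 regions with a peak in WT pre-proB, 3 (10.7%) had none in Erg KO pre-proB, against 6.38% of all such regions in the genome. Of 29 with a peak in Erg KO pre-proB, 4 (13.8%) had none in WT pre-proB, against 13.2% of all. All 7 had a fold of 5.04 or less, and with all lists cut to the shortest (76465 peaks) 4 were called only in WT pre-proB and 0 only in Erg KO. Those of WT pre-proB were hs4 at 5.04 and the regions 929 bp upstream of Ighd2-4 and 20958 bp upstream of Ighd1-1, both at 3.49. The highest of Erg KO pre-proB, 5389 bp upstream of Ighg3, had 4.21, followed by 3.48 beside Ighd2-4 and 3.30 inside Ighd. In the 25 regions shared by both, no fold differed by more than 2-fold, and the median log2 ratio of Erg KO over WT was 0.13, beside 0.06 over all regions. The largest rises were 1.76-fold 4743 bp upstream of Ighe (5.43 to 9.53, 1.09 to 2.89), 1.39-fold at chr12:113446052-113446558 (0.906 to 2.16) and 1.34-fold upstream of Ighg3 (0.992 to 1.83). The lowest ratios were 0.700 at the region 921 bp upstream of Ighd1-1 (0.372 to 1.30), 0.807 between Ighg2b and Ighg1 (0.611 to 1.06) and 0.836 inside Ighd (0.456 to 1.52), and none of these 3 intervals excluded 1. In these 3 pre-proB libraries (WT, Erg KO, Rescue), promoters of B-lineage markers were open for 9, 6 and 7 of 10 genes and those of T cell markers for 5, 7 and 7. The part of such differences in the values above was not tested. Promoters of all 24 listed regulators of the locus were open in WT pre-proB cells, and 22 of them in Erg KO cells of that stage, where no peak was called at Pax5, a B-lineage factor that acts on Igh, or at Pou2af1, the partner of Oct proteins at octamers. Peaks at these 2 were also missing in the Rescue library of the stage.

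From WT pre-proB to WT proB the window lost and gained regions about as often as the whole genome did. Of 28 regions in pre-proB, 11 (39.3%) had no peak in proB, against 34.4% of all regions, and of 25 in proB, 8 (32.0%) had none in pre-proB, against 31.9%, so the share was near that of the genome. By block, 5 of the 11 lay over the D segments and 5 among the constant genes, and 6 of the 8 lay downstream of Igha. The 8 became 17 when summits within 250 bp were compared, 13 with a reciprocal overlap of 50% and 4 with the strongest 38232 peaks. Beside the Ighd4-1 summit, which merging joins to the Eμ region and so leaves out of these counts, the highest lost were those upstream of Ighg3 at 14.7, downstream of Ighd3-2 at 13.2 and beside Ighd5-6 at 11.2. The highest gained were 20.3 and 6.09 downstream of Igha. In the 17 shared regions 4 rose and 2 fell by over 2-fold, with a median log2 ratio of -0.07, as over all regions. In 1 of the 4, upstream of Ighg2c, and in the region that joins Eμ and Ighd4-1, the ratio sets different summits side by side. The same holds for the highest insulator region (ratio 0.823) and the region 921 bp upstream of Ighd1-1 (0.811). Beside those given above, the region 20958 bp upstream of Ighd1-1 rose 4.39-fold (2.61 to 7.77), and the IGCR1 core nearer to Ighd1-1 stood 2.16-fold higher in pre-proB (1.22 to 3.95).

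From WT proB to WT preB the shared regions of the window were mostly higher in preB. The median log2 ratio was 0.66 over 21 shared regions and 0.05 over all regions, with 6 over 2-fold up and 1 down; in 1 of the 6, the highest insulator region, the summits differ. Of 25 regions in proB, 4 (16.0%) had no peak in preB, against 26.5% of all, and of 29 in preB, 8 (27.6%) had none in proB, against 10.6%. The 4 became 1 in lists of equal length, and the 8 became 3 in lists of the strongest 38232 peaks. The largest rise was 3.71-fold at the region 9889 bp past Igha (2.48 to 5.66). The other core of IGCR1 was 2.08-fold higher in proB (1.2 to 3.76), and the region 20958 bp upstream of Ighd1-1 was 1.46-fold higher in proB (1.01 to 2.12). Regions seen in preB and not in proB were low, the highest being 6.58 at 17213 bp past Igha, 5.48 inside Ighd and 4.38 at 12153 bp past Igha. At 17213 bp past Igha, 31.2% of the 75-base words occur more than once in the genome, so that value is uncertain. Those seen in proB and not in preB reached 4.98.

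Rescue pre-proB was close to WT and to Erg KO pre-proB in most regions, and lower at Ighd4-1. Of 28 WT pre-proB regions, 3 (10.7%) had no peak in Rescue pre-proB, against 5.39% of all, and 3 of 28 (10.7%) the other way, against 15.4%. The median log2 ratio over 25 shared regions was 0.17, beside 0.16 over all. In the region that joins Eμ and Ighd4-1, the ratio sets the Eμ summit of Rescue beside the Ighd4-1 summit of WT or Erg KO. At Ighd4-1 itself, the log2 ratio of Rescue was -0.43 against WT and -0.51 against Erg KO. Of the shared regions, 2 were over 2-fold higher in Rescue, 2.20-fold at 3157 bp downstream of Ighg2c (6.01 to 13.2, 1.43 to 3.46) and 2.16-fold at chr12:113446052-113446558 (1.46 to 3.25). Against Erg KO pre-proB, which shares its library with the first comparison, 4 of 29 (13.8%) regions of Erg KO were not called in Rescue, against 6.37%, and 3 of 28 (10.7%) the other way, against 9.64%. The same pair of regions stood highest, at 1.95-fold (1.30 to 2.98) and 1.55-fold (1.10 to 2.21) among the values whose interval excluded 1. No region was called in only 1 of these libraries with a fold above 5.04. By source name, the library titled preB would be Rescue pre-proB, and then 24 of its regions had no peak in WT pre-proB and 25 had none in Erg KO pre-proB.

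The proB and preB Rescue libraries had many regions that WT lacked. All 25 WT proB regions had a peak in Rescue proB, so 0 of 25 were lost against 20.8% of all, and 17 of 42 (40.5%) Rescue proB regions had none in WT proB, against 19.4%. Of WT preB regions, 3 of 29 (10.3%) were not called in Rescue preB, against 7.87%, and 20 of 46 (43.5%) Rescue preB regions had none in WT preB, against 17.3%. By block, the 17 fell 6 downstream of Igha, 8 among the constant genes and 3 over the D segments, and the 20 fell 6, 8 and 6. Among these regions the highest was the one 627 bp downstream of Ighd3-2, at 23.8 and 15.3. The Ighd4-1 summits of Rescue proB and preB, at 15.8 and 18.2, also had no WT peak but are merged with Eμ and not counted here. In proB the pair of inverted copies followed, at 15.6 and 10, and in preB the region 4743 bp upstream of Ighe and chr12:113446052-113446558, both at 7.22. WT preB regions not called in Rescue preB reached 4.16. Heights in shared regions were close, with a median log2 ratio of 0.16 over 25 regions in proB (0.01 over all) and 0.05 over 26 in preB (0.10 over all). The exceptions over 2-fold were the region 9889 bp past Igha in proB, 2.96-fold higher in Rescue (1.95 to 4.58), and in preB the region 20958 bp upstream of Ighd1-1, 2.57-fold (1.83 to 3.65), and the other IGCR1 core, 2.48-fold (1.43 to 4.45). With the strongest 38232 peaks of each list, the 17 and 20 regions of Rescue became 5 and 2, and the 0 regions seen only in WT proB became 4 in lists of equal length, 4 with a reciprocal overlap of 50%, 5 when summits within 250 bp were compared and 10 with Rescue stages by source name.

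**Figure D5:**
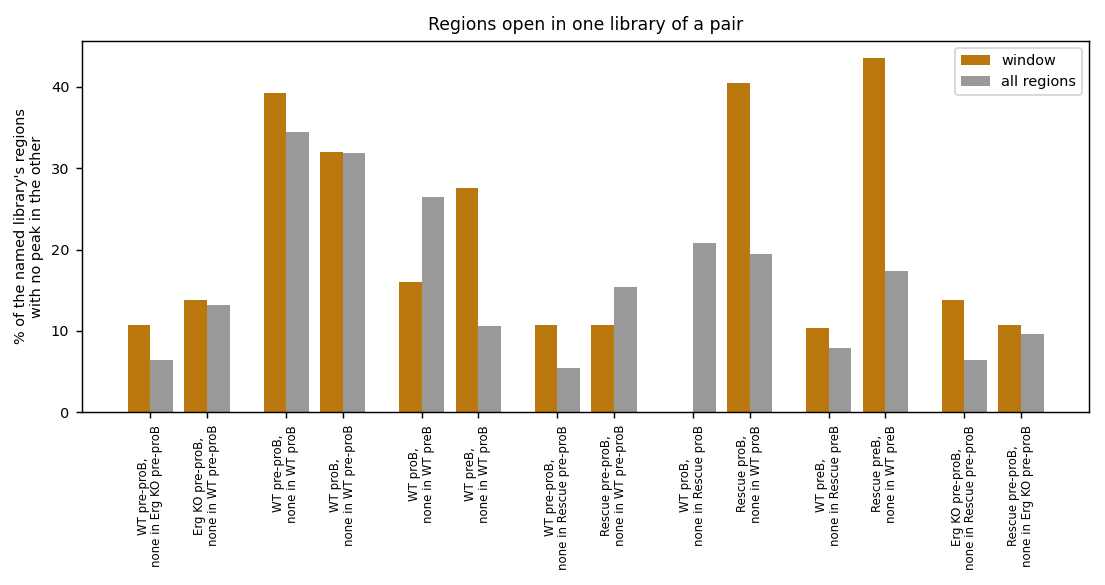
Share (%, linear axis from 0) of the named library's regions that had no peak in the other library of each pair, for regions of the window and for all regions of the genome. The window exceeds the genome most in Rescue proB (40.5% against 19.4%) and Rescue preB (43.5% against 17.3%) and has no bar for WT proB against Rescue proB, where the share was 0.

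Sequence motifs at the summits were then counted. Windows of 300 bases round 80 summits (summits within 250 bp of each other taken once) were searched on both strands and set beside 163558 such windows from the whole genome. The octamer ATGCAAAT was in 4 of the 80 (5%, against 2.69%), at hs4, at 9889 bp past Igha, at Eμ and at the summit inside Ighm. The ETS core GGAAG was in 70.0% (74.4% of all), CATGTG in 28.8% (22.2%), CANNTG, which includes it, in 90% (83.7%), the heptamer CACAGTG in 12.5% (10.4%) and the CTCF core in 7.50% (6.95%). A match is a description of the letters and not of binding.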

How the data were processed

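ATAC-seq of 7 libraries (1 per group) was analysed from 1 peak list per library. According to the methods, 75-bp paired-end reads were aligned to mm10 with Bowtie2 and peaks called with MACS2; Picard and CASAVA 1.8.2 are named in the submitters' processing notes. Options, duplicate handling and read-end shifts are, in the sources used here, not given, and the sources differ on fragmentation (sonication in the methods, Tn5 in the labels). The authors deposited, for each peak, a score (10 times the −log10 q), a fold (a ratio of summit to background pileup, 1 added to each), a −log10 p and −log10 q, and a summit offset. Read totals were not used.

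The step between folds gave each background, and folds lay within 0.02 of a step for 100% of peaks. The Poisson p-values recomputed from the recovered pileups matched the deposited −log10 p for 100% of peaks in every library. Ratios carry exact binomial 95% intervals on the summit pileups, and single pileups exact Poisson intervals. Both cover counting error only. Merging and background recovery were tested on simulated data. With 1 library per group no test was made. Regions shared at least 1 bp; a promoter peak lay within 1000 bp of a GENCODE (basic set) start. Sequences came from GRCm38 and named regions were the 3 highest of each block and, in each comparison, the 3 largest ratios and 3 highest single-library regions each way. Members and lists were chosen with earlier results of these data known. Python 3.11.15 with pandas 2.3.3, numpy 2.4.6 and scipy 1.17.1 was used.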

Additional observations from a re-analysis of the deposited data

Results flagged for a closer look

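Over the step from pre-proB to proB, the region 627 bp downstream of Ighd3-2 moved opposite ways in WT and Rescue. The fold rose 1.88-fold in Rescue (95% counting interval 1.38 to 2.57). In WT, proB had no peak and was set at its lowest called pileup. The WT ratio of 0.182 is therefore only an approximate upper limit and carries no counting interval. Over the step from proB to preB, the region 20958 bp upstream of Ighd1-1 rose 1.78-fold in Rescue (1.32 to 2.43) and had a ratio of 0.687 in WT (0.471 to 0.991). With 1 library per group, neither difference between WT and Rescue was tested beyond counting error. By source name, the Rescue libraries would stand at other stages and these steps would not be the same.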

How the results depend on the processing

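The count of regions called in 1 library of a pair depends on where the lists end and how peaks are joined, and each change below is set by how the alternative is built. With all lists cut to the shortest (76465 peaks), 4 of 15 values left the 1.5-fold range: 0 regions in Erg KO pre-proB and not in WT (4 before), 0 in Erg KO and not in Rescue pre-proB, 1 in WT proB and not in preB, and 4 in WT proB and not in Rescue proB. With lists of the strongest 38232 peaks the window kept 20 regions, and the counts were, for Erg KO against WT pre-proB, 0 and 0; for WT pre-proB to proB, 3 lost and 4 gained; for WT proB to preB, 0 lost and 3 gained; for Rescue against WT pre-proB, 1 and 1; for Rescue proB, 5 only in Rescue; for Rescue preB, 0 only in WT and 2 only in Rescue; and for Rescue against Erg KO pre-proB, 1 and 1. With summits within 250 bp as the unit, 8 were only in Erg KO against WT pre-proB, 17 only in WT proB against pre-proB, 11 only in WT proB against preB, 6 only in Rescue against WT pre-proB and 5 only in WT against Rescue proB. A reciprocal overlap of 50% gave 13 only in WT proB against pre-proB, 8 only in WT proB against preB, 4 only in WT against Rescue proB and 6 only in WT against Rescue preB. With Rescue stages by source name, 6 regions were only in WT and 24 only in Rescue pre-proB, 10 only in WT proB, 5 only in WT preB, 8 only in Erg KO and 25 only in Rescue pre-proB against Erg KO. Scaling folds over 45310 regions open in all 7 libraries moved the median log2 ratio to 0.04 for Rescue against WT pre-proB and to -0.07 for Rescue against WT preB. Leaving out the 1 region of mostly repeated words moved none of 22 values. No paired analysis was possible because each group was 1 library, and no library could be left out. Pileups limit folds near the lowest called summit, so low peaks present in 1 library only may lie on either side of the threshold.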
